A study of Mus musculus with 22 samples.

Results

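The 9 genes described here, Serpinb2, Serpinb1a, Serpinb6a, Serpinb6b, Serpinb9, Serpina3g, Serpina3f, Serpine2 and Serpinf1, are members of the serpin family of protease inhibitors. They were taken by symbol from a table of 49671 genes measured in mouse TH2 cells, and they were chosen by their difference between calcitriol and vehicle in these same libraries. Their differences are therefore given as a description, with standard errors and without a test. The annotation and the table both hold 68 serpin genes, so the 9 are a minority of the family. Of them, 5 belong to clade b, 2 to clade a, 1 to clade e and 1 to clade f.

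RNA sequencing compared 11 libraries of TH2 cells, helper T cells cultured towards the type 2 cytokine programme, that had received 100 nM calcitriol for the final 24 hours with 11 vehicle libraries that had received 2% ethanol. Calcitriol is the hormonally active form of vitamin D. All cells were of wild-type genotype and came from Balb/c mice, male and female, 6 to 8 weeks old, of a colony kept on food with 400, 1000 or 4000 IU of vitamin D3 per kg, and RNA was taken at day 5 of polarization. The labels tie no library to a mouse, a sex, a diet or a culture and do not state whether the calcitriol cultures held ethanol, so p-values measure the spread between libraries, which may be technical in part.

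Depth varied between libraries, the shallowest holding 3214171 counts in all, the median one 7504710 and the deepest 20258430. Replicates 1 and 2 of each group, 4 libraries in all, were set apart from the others by earlier results of these data, on the second principal component. That component was not computed again here. The members' values in these 4 libraries are given where they are extreme. T cell transcripts were present: Cd4 was at 755 ± 37.7 CPM (TMM-scaled counts at an equal library total; SD, n = 11) in vehicle and 690.0 ± 45.2 CPM in calcitriol libraries, and the TH2 regulator Gata3 at 86.5 ± 9.56 and 97.2 ± 15.1 CPM. Both belong to a list of 16 T cell and TH2 genes, of which 14 were tested. Of these, 3 were called higher with calcitriol, 3 lower and 8 were not called, beside 31.5% of all tested genes called. In bulk RNA, fewer cells of a type and less RNA per cell cannot be told apart.

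Serpins fold into a strained structure with an exposed loop that a protease mistakes for a substrate. On cleavage the loop inserts into the body of the inhibitor and the trapped protease is distorted and inactivated, so that each inhibitor molecule is spent on a single protease molecule. Clade b serpins lack a classical secretion signal and act mostly inside cells, where they guard lymphocytes and myeloid cells against their own granule proteases, while most serpins of clades a, e and f are secreted.

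The promoters of 8 members were found by symbol in the RefSeq table of build GRCm38.p6, which lists 250 bases before to 50 bases after each gene's start. Serpinb1a is not among them. Searched on both strands were the direct repeat vitamin D response element with a spacer of 3 bases, its hexamers AGGTCA and AGTTCA, the STAT motif TTCNNNGAA, the GATA motif AGATAA and the NF-kB motif. The stretches below are those of the members with a match near the start, and are shown so that the letters can be read beside the values. They run 5′ to 3′ along the gene's strand, from 130 bases before the start (for Serpinf1 from 250) to 30 bases from it. Capitals mark the motif matches.
Serpinb2 chr1:107511293-107511452 plus strand: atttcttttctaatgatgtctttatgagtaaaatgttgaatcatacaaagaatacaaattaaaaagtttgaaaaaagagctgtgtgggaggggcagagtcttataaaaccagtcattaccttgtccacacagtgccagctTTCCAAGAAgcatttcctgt
Serpina3g chr12:104236017-104236176 plus strand: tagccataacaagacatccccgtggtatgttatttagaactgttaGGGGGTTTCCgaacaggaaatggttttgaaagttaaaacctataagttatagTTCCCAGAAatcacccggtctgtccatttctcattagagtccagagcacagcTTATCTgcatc
Serpina3f chr12:104214414-104214573 plus strand: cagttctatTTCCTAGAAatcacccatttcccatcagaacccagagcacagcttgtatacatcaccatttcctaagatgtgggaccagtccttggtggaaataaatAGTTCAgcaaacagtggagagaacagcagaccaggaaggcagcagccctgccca
Serpinb6a chr13:34002765-34002924 minus strand: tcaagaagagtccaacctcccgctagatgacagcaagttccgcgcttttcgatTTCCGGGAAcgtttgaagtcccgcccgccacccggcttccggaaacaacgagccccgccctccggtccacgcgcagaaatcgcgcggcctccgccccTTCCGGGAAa
Serpinf1 chr11:75422594-75422873 minus strand: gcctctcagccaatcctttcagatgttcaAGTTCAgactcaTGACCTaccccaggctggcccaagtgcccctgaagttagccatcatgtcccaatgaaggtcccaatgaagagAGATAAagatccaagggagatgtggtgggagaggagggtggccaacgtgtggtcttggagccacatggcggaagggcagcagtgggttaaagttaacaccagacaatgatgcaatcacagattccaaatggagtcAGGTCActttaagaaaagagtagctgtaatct

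No member promoter matched the full vitamin D response element, which 0.256% of the 32851 promoters in the table hold. This says only that those letters are not in this window. TTCNNNGAA was present in the promoters of Serpinb2, Serpina3g, Serpina3f and Serpinb6a, against 8.3% of all promoters, and since it reads alike on both strands each match counts on both. It lay 10 bases after the first of 2 Serpinb2 starts (TTCCAAGAA), 33 bases before the Serpina3g start (TTCCCAGAA), 121 bases before the first of 2 Serpina3f starts (TTCCTAGAA), and both 77 bases before and 20 bases after a Serpinb6a start (TTCCGGGAA). The Serpina3g stretch also holds an NF-kB motif 85 bases before the start, a motif found in 8.46% of promoters, and AGATAA on the opposite strand 19 bases after it, where it reads TTATCT.

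The Serpinf1 stretch holds AGTTCA 221 bases before the start, AGGTCA on the opposite strand 209 bases before (reading TGACCT) and on the gene's strand 2 bases before, and AGATAA 137 bases before. Of all promoters, 14.0% hold AGTTCA, 16.3% hold AGGTCA and 11.2% hold AGATAA. The Serpina3f stretch has AGTTCA 24 bases before the start, and the second Serpinb2 start has AGATAA 41 bases before it, outside the stretch shown. None of these motifs was found in the promoters of Serpinb6b, Serpinb9 and Serpine2. These matches describe letters and are not shown to be binding sites.

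Serpinb2 and Serpinf1 were higher in the calcitriol libraries, and Serpina3g, Serpinb6a, Serpinb6b, Serpinb9 and Serpine2 were lower. All 7 of these members passed the filter on low counts and all 7 passed an adjusted p of 0.05 in edgeR's quasi-likelihood test over all genes, beside 31.5% of the 11905 genes tested. Serpinb2, with 62 vehicle and 1874 calcitriol counts, passed the filter only through the calcitriol group, where it is high. The 2 higher members stand beside 16.1% of tested genes called higher and the 5 lower ones beside 15.5% called lower. In 3 of the 7 (Serpinb2, Serpina3g and Serpinf1) the calcitriol and vehicle libraries did not overlap, which was the case for 4.36% of tested genes. As the members were chosen by this comparison, nothing is read from these counts. The median log2 difference of the 7 was -0.61, and that of all tested genes was -0.01. Serpinb1a and Serpina3f had too few counts for the filter and are given by their counts.

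**Figure D1:**
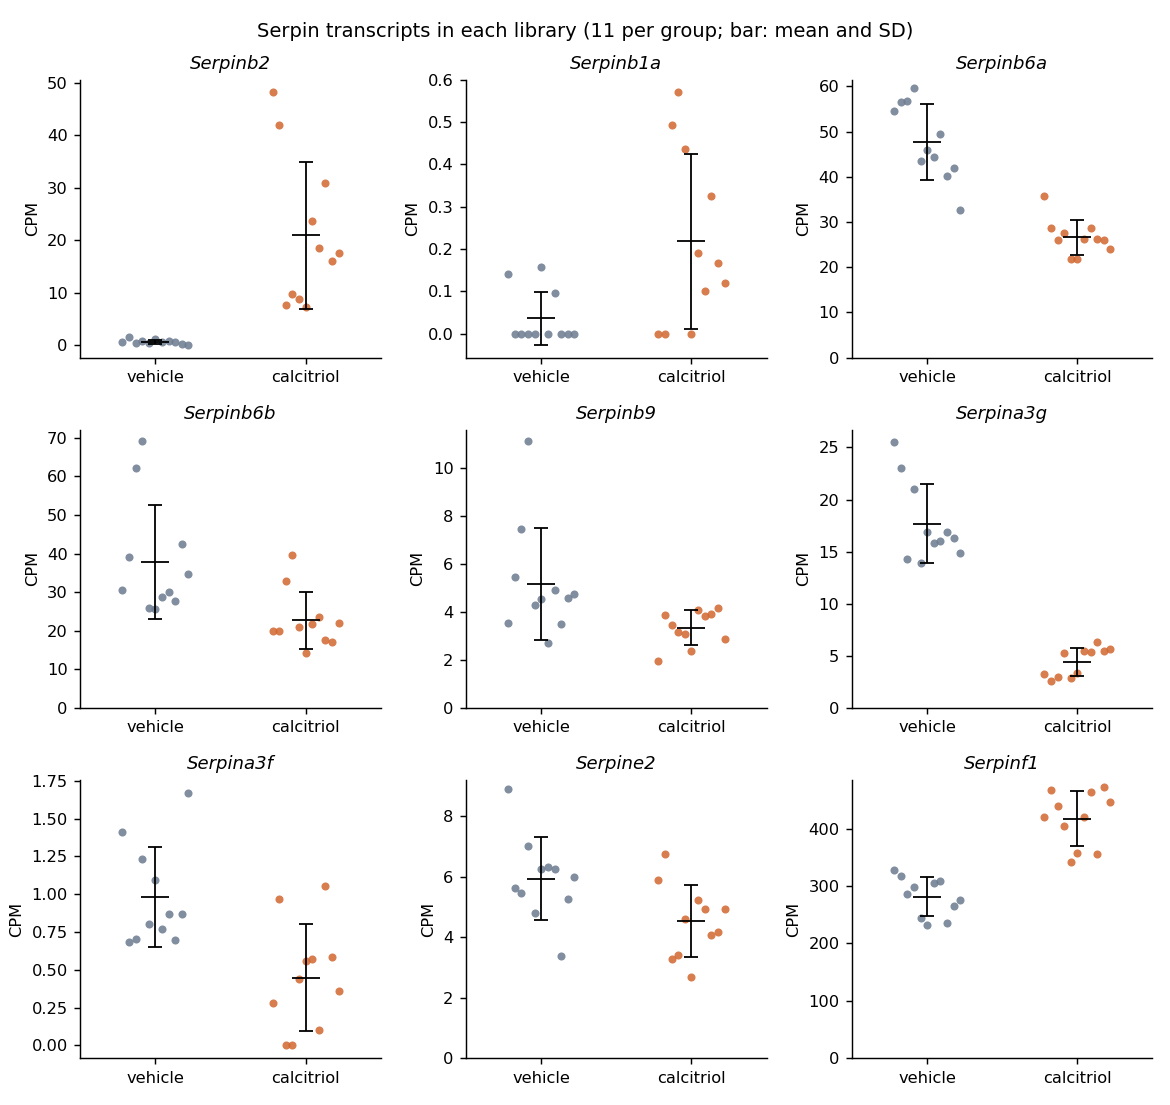
Normalised expression (TMM-normalised CPM, vertical axis, linear, with its own scale per gene) of the 9 serpins in each of 11 vehicle and 11 calcitriol libraries; points are libraries and bars the mean and SD. The groups do not overlap for Serpinb2, Serpina3g and Serpinf1, and Serpinb1a and Serpina3f lie near the detection limit.

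Serpinb2 encodes plasminogen activator inhibitor type 2, an inhibitor of urokinase that is largely retained inside cells. Its level in the vehicle libraries was 0.088 CPM at the lowest, 0.695 at the median and 1.54 at the highest, from 1 to 9 counts per library and 62 in all. In the calcitriol libraries it was 7.29 CPM at the lowest, 17.6 at the median and 48.1 at the highest, from 47 to 380 counts per library and 1874 in all. Serpinb2 was thus barely detected with vehicle and present in every calcitriol library, each of which lay above all vehicle libraries.

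The group means of Serpinb2 were 0.731 ± 0.399 CPM (SD, n = 11) with vehicle and 20.9 ± 14.0 CPM with calcitriol, a log2 difference of 4.93 ± 0.44 (SE) or 30.5-fold. Calcitriol replicates 1 and 2 were the highest at 48.1 and 41.9 CPM, while the other 9 ran from 7.29 to 30.9 with a mean of 15.6 ± 8.08 CPM (SD). Without the 4 libraries that stand apart, the log2 difference was 4.72. No stretch of 50 bases of its longest transcript recurred in another gene. Its exons share 291 bases, 12.4% of their length, with Serpinb10 on the same strand, and that gene had 5 counts in all libraries together.

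Serpinb1a, Serpinb6a, Serpinb6b and Serpinb9 lie on mouse chromosome 13 and are the intracellular members best known for protecting cells from granule proteases. Serpinb6a and Serpinb6b are 86.3% identical in coding sequence. The 3 members of this group that passed the filter were lower with calcitriol, by less than 1 on the log2 scale.

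Serpinb6a is an inhibitor of cathepsin G and related serine proteases. In vehicle libraries it ran from 32.7 CPM at the lowest through a median of 46.0 to 59.6 at the highest, and in calcitriol libraries from 21.7 through 26.2 to 35.7. Every calcitriol library but 1 lay below all vehicle libraries, the exception being calcitriol replicate 1. The means were 47.8 ± 8.39 and 26.6 ± 3.8 CPM (SD, n = 11), 1.80-fold lower with calcitriol, at a log2 difference of -0.84 ± 0.09 (SE). Its exons overlap genes on the opposite strand, namely Nqo2 over 14.1% of their length, an antisense transcript over 10.8% and the kinase gene Ripk1 over 4.46%. The strand setting of the counting is not given in the sources used here, so reads from these stretches cannot be told apart.

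Serpinb6b, a mouse gene whose product is known as an inhibitor of granzyme A, ran from 25.5 CPM through a median of 30.6 to 69.3 with vehicle. With calcitriol it ran from 14.2 through 20.9 to 39.7 CPM. The groups overlapped, with 9 of 11 calcitriol libraries below every vehicle library. Vehicle replicates 3 and 4 were the highest of their group at 62.2 and 69.3 CPM, and calcitriol replicates 3 and 4 were the highest of theirs at 32.8 and 39.7 CPM. The log2 difference was -0.75 ± 0.20 (SE), 1.69-fold lower. Of its 50-base stretches, 3.12% recur in other genes, mostly Serpinb6c. Summing the 5 Serpinb6 rows before the fit gave 8160 vehicle and 4484 calcitriol counts and a log2 difference of -0.80 ± 0.12.

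Serpinb9 encodes the inhibitor of granzyme B that shields lymphocytes from their own cytotoxic granules. Vehicle libraries ran from 2.7 CPM through a median of 4.58 to 11.1, and calcitriol libraries from 1.96 through 3.46 to 4.16. The groups overlapped widely, and only 2 calcitriol libraries lay below all vehicle libraries. Means were 5.16 ± 2.32 and 3.34 ± 0.723 CPM (SD, n = 11), 1.53-fold lower, with a log2 difference of -0.61 ± 0.19 (SE). Vehicle replicate 4 held the highest value at 11.1 CPM and vehicle replicate 3 the next at 7.44. When libraries of a group that resembled each other most were summed, leaving 6 sets per group, the log2 difference was -0.59 and the gene was no longer called, that is, past an adjusted p of 0.05.

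Serpinb1a, an inhibitor of neutrophil elastase and cathepsin G, was near the limit of detection. It had 3 counts over the vehicle libraries, 8 of which had none, and 21 over the calcitriol libraries, 3 of which had none. The ratio of scaled counts was 7.27 (95% exact binomial interval 2.17 to 38.1, counting error only). Its closest copy, Serpinb1b, is 90.7% identical in coding sequence, and the 4 rows of the Serpinb1 group together held 4 vehicle and 21 calcitriol counts.

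Serpina3g and Serpina3f sit side by side on chromosome 12 in the expanded mouse family of antichymotrypsin-like genes. Serpina3g, known as Spi2A, is unusual for its clade in acting in the cytosol, where it inhibits lysosomal cysteine cathepsins that leak out. Vehicle libraries ran from 13.9 CPM at the lowest through a median of 16.3 to 25.5 at the highest. Calcitriol libraries ran from 2.58 through 5.28 to 6.34 CPM. Every calcitriol library lay below every vehicle library, with a wide gap between 6.34 and 13.9 CPM.

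The means of Serpina3g were 17.7 ± 3.8 and 4.40 ± 1.39 CPM (SD, n = 11), 3.86-fold lower with calcitriol, at a log2 difference of -1.95 ± 0.15 (SE). Vehicle replicates 1 and 2 were the highest of their group at 25.5 and 23.0 CPM, and without the 4 libraries that stand apart the log2 difference was -1.75. Serpina3g shares 16% of its 50-base stretches with other genes, chiefly Serpina3h, Serpina3f and Serpina3i. How far this affects its counts was not tested. With the 14 Serpina3 rows summed, 1882 vehicle and 513 calcitriol counts gave a log2 difference of -1.89 ± 0.14.

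Serpina3f is 87.4% identical to Serpina3g in coding sequence over the 744 bases that were aligned. It had 96 vehicle and 43 calcitriol counts. Vehicle libraries ran from 0.682 CPM through 0.868 to 1.67 and calcitriol libraries from 0, in 2 libraries, through 0.438 to 1.06. The scaled count ratio was 0.466 (95% exact binomial interval 0.317 to 0.674, counting error only), and 9 of 11 calcitriol libraries were below all vehicle libraries. Serpina3f and Serpina3g thus both had fewer counts with calcitriol, but 10.7% of the Serpina3f stretches recur in other genes, Serpina3g first among them.

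Serpine2 encodes protease nexin-1, a secreted inhibitor of thrombin and urokinase that works at the cell surface. Vehicle libraries ran from 3.36 CPM through a median of 5.99 to 8.89 and calcitriol libraries from 2.66 through 4.60 to 6.76. The groups overlapped over most of their range. The means were 5.93 ± 1.37 and 4.54 ± 1.19 CPM (SD, n = 11), 1.32-fold lower, with a log2 difference of -0.40 ± 0.15 (SE). This was the smallest difference among the members that passed the filter, and the gene lost its call in 13 of 29 alternative settings. The call was lost on leaving out any 1 of vehicle replicates 1, 4, 6, 7, 8 and 11 or calcitriol replicates 3, 4, 6, 9 and 10.

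Serpinf1 encodes pigment epithelium-derived factor, a secreted serpin that has lost inhibitory activity and is known for effects on blood vessels, neurons and fat metabolism. It was the most abundant serpin of the table. Vehicle libraries ran from 231.7 CPM through a median of 286 to 328 and calcitriol libraries from 341.5 through 421.5 to 473. No calcitriol library reached down to the vehicle range. The means were 281 ± 33.9 and 418 ± 47.3 CPM (SD, n = 11), 1.48-fold higher with calcitriol, at a log2 difference of 0.57 ± 0.07 (SE). With 27021 vehicle and 38505 calcitriol counts, Serpinf1 rests on the most counts of any member, and none of its 50-base stretches recurs elsewhere.

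**Figure D2:**
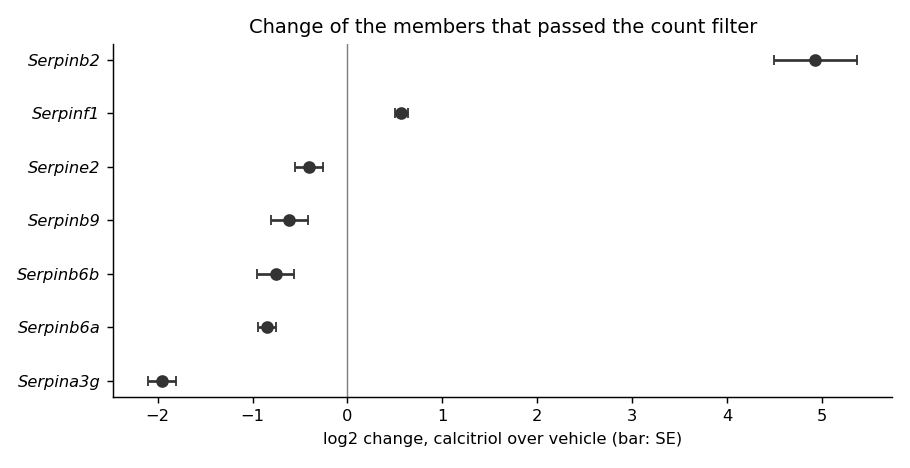
Log2 difference of calcitriol over vehicle (horizontal axis) with its standard error for the 7 members that passed the count filter, in order of the difference. Serpinb2 lies far to the right at 4.93, Serpinf1 at 0.57, and the other 5 lie below 0, down to -1.95 for Serpina3g.

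Compared per kilobase of exon, the members' levels covered a wide range. In vehicle libraries the order from high to low was Serpinf1 at 119 ± 14.4 CPM per kb (SD, n = 11), Serpinb6b at 16.7 ± 6.56, Serpinb6a at 8.83 ± 1.55, Serpina3g at 8.40 ± 1.81, Serpinb9 at 1.48 ± 0.665, Serpine2 at 0.716 ± 0.166, Serpina3f at 0.429 ± 0.144, Serpinb2 at 0.311 ± 0.170 and Serpinb1a at 0.0156 ± 0.0273. Of neighbours in this order, Serpinb6a and Serpina3g differed by less than their SDs, as did Serpina3f and Serpinb2. In calcitriol libraries Serpinb2 stood at 8.91 ± 5.96 CPM per kb, close to Serpinb6b at 10 ± 3.25 and above Serpinb6a at 4.92 ± 0.703, while Serpina3g was at 2.09 ± 0.660. Serpinf1 headed the order there too, at 177 ± 20 CPM per kb. The order depends on the length used. With the longest transcript in place of all exons, Serpinb6a was at 21.8 CPM per kb in vehicle libraries, above Serpinb6b at 17.3, and at 12.1 in calcitriol libraries, above Serpinb2 at 10.5 and Serpinb6b at 10.3. Serpine2 then lay above Serpinb9, at 1.75 against 1.49 CPM per kb in vehicle and 1.34 against 0.961 in calcitriol libraries.

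Of the 59 other serpin genes, 39 had no count in any library and 10 had between 1 and 5. A further 9 had more than 5 counts but too few for the test, and they were named after their values were seen. Serpinb8, which lies near Serpinb2 on chromosome 1, had 1 vehicle and 48 calcitriol counts, a scaled ratio of 49.9 (95% exact binomial interval 8.54 to 2011). Serpinb5, which encodes maspin and is on the same chromosome, had 17 and 104 counts, a ratio of 6.36 (3.79 to 11.3), and its highest value, 6.02 CPM, was in calcitriol replicate 1. Serpina9 had 0 and 31 counts, which is at least 10.7-fold higher with calcitriol when the vehicle group is set to a floor of 3 counts. These clade b and clade a genes were thus detected mainly in calcitriol libraries.

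Counts of the pseudogene Serpina3h were 41 with vehicle and 4 with calcitriol, a ratio of 0.101 (0.0264 to 0.280), and those of Serpina3i were 65 and 29, a ratio of 0.464 (0.289 to 0.729). Both share sequence with Serpina3g. For Serpinc1, the antithrombin gene, with 30 and 41 counts, Serpini1, the neuroserpin gene, with 57 and 51, Serpinf2 with 8 and 9 and Serpind1 with 2 and 4, the counting interval of the ratio included 1. All these intervals cover counting error only and not the spread between libraries.

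The spread of the members between libraries of a group differed from gene to gene. For Serpinb2 the SD of log2 CPM was 0.66 within vehicle and 0.95 within calcitriol libraries, larger than that of 97.4% and 99.5% of tested genes. Serpinb6b was at 0.49 and 0.41, and Serpinb9 at 0.53 and 0.32. Serpinf1 was at 0.18 and 0.17, below the medians over all tested genes of 0.20 and 0.21. The largest and the smallest spread of the 7 tested members therefore belonged to the 2 that were higher with calcitriol. These 2 also differ in depth of counting. Serpinb2 had 1 to 9 counts per vehicle library and 47 to 380 per calcitriol library, while Serpinf1 had 913 to 5493 and 1453 to 5686. Few counts widen the spread of log2 CPM, and the part of counting error in these SDs was not tested.

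Deviations from the group mean were compared between genes by Pearson's r over the 22 libraries, as a description without a p. The points share their library, its depth and its scaling, and libraries within a group resemble one another in sets. The highest r between members was 0.68, for Serpinb2 with Serpinb6a, followed by 0.59 for Serpinb6b with Serpinb9 and 0.56 for Serpine2 with Serpinf1, and without the 4 libraries that stand apart these were 0.55, 0.61 and 0.47. Serpinb2 with Serpina3g went from 0.22 to 0.70 and Serpinb6a with Serpinb9 from 0.31 to 0.67 on leaving out those 4 libraries.

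**Figure D3:**
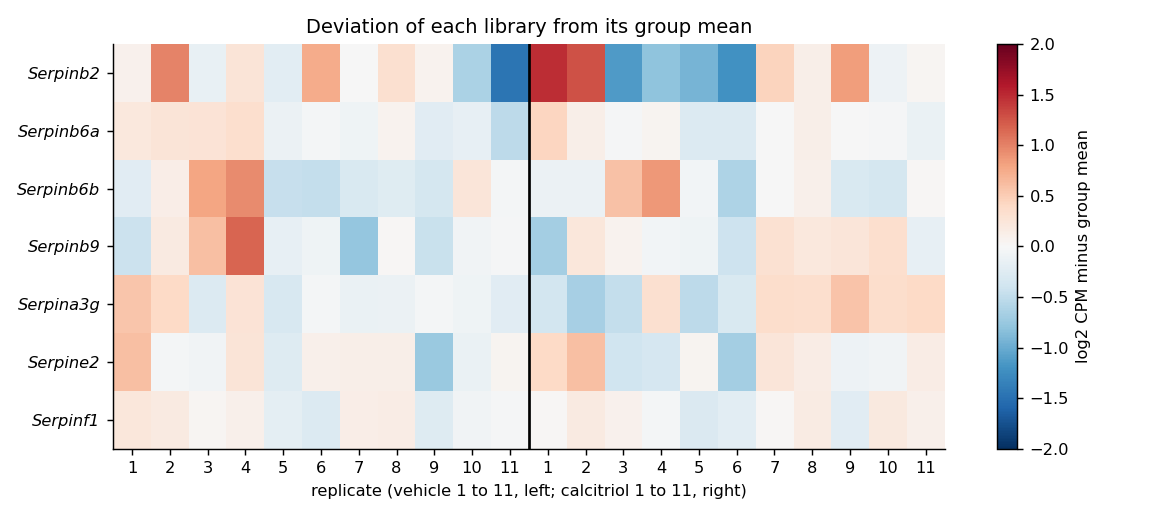
Deviation of each library from its group mean in log2 CPM (colour, from -2 in blue to 2 in red) for the 7 members that passed the count filter; columns are the vehicle libraries 1 to 11, left of the black line, and the calcitriol libraries 1 to 11, right of it. Serpinb2 has the strongest colours, Serpinf1 the palest, and Serpinb6b is highest in replicates 3 and 4 of both groups.

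Outside the family, the genes most alike to each member in these deviations were sought among the 9888 genes whose mean reached 5 CPM. For Serpinb2 they were Pdlim1 (r = 0.850) and Fcf1 (0.839), for Serpinb6a Ccdc50 (0.905) and Atrnl1 (0.873), and for Serpinb6b Hif1a (0.897), the oxygen-sensing transcription factor, and Gbp2b (0.895), an interferon-inducible GTPase. For Serpinf1 they were Nfkb1 (0.889), a subunit of NF-kB, and the glycolytic enzyme Tpi1 (0.887). For Serpina3g they were Nme7 (0.792) and Slc38a6 (0.783), for Serpine2 Creb3l2 (0.804) and Jdp2 (0.736), and for Serpinb9 Oaz2 and Trim21 (both 0.728). Serpinb6a and the genes most alike to it were all lower with calcitriol, Ccdc50 at a log2 difference of -0.87 and Atrnl1 at -0.63. Serpinf1 and Nfkb1 were both higher, Nfkb1 by 0.21, while Tpi1 was not called. Serpinb6b was lower, while Hif1a and Gbp2b rose by 0.30 and 1.11 on the log2 scale. Without the 4 libraries that stand apart, some r values were higher and others lower. They then ran from 0.589 for Serpine2 with Jdp2 to 0.944 for Serpinb6b with Gbp2b. Being the best of 9888, these r values say less than those of a pair named in advance.

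The proteases that serpins act on, and inhibitors of other families, were read from lists by role, and counts are given beside the 31.5% of all tested genes that were called. Of 16 granule proteases and their partners, 3 passed the count filter, and 2 of these rose. Gzmb, the protease that Serpinb9 inhibits, rose from 13.9 ± 3.07 to 44.6 ± 18.3 CPM (SD, n = 11), by 1.70 ± 0.21 (SE) on the log2 scale (edgeR, adjusted p = 1.65e-06), with 10 of 11 calcitriol libraries above every vehicle library. Gzma, the protease that Serpinb6b inhibits, rose from 8.81 ± 7.77 to 77.8 ± 43.0 CPM, by 3.06 ± 0.41 (adjusted p = 6.24e-06). The transcripts of these granzymes were thus higher in the calcitriol group, in which those of Serpinb9 and Serpinb6b were lower. Srgn, which encodes the proteoglycan that packs granules, differed by 0.05 ± 0.06 (adjusted p = 0.561). Perforin, Prf1, had only 85 and 170 counts and was not tested, and Elane, the neutrophil elastase that Serpinb1a inhibits, had none; both were named for their role.

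Of 14 lysosomal proteases, 13 were tested, 5 rose, 1 fell and 7 were not called, and the median log2 difference was 0.05. Ctse rose from 107 ± 19.0 to 308 ± 33.8 CPM, by 1.52 ± 0.09 (edgeR, adjusted p = 2.92e-13), and Ctsl, a cysteine cathepsin, from 14.6 ± 2.22 to 34.3 ± 4.01 CPM, by 1.22 ± 0.08 (adjusted p = 4.13e-12). The asparaginyl endopeptidase Lgmn rose by 1.0 ± 0.12, Ctsf by 0.67 ± 0.12 and Ctsa by 0.28 ± 0.04 on the log2 scale. Ctsw was the 1 gene of the list that fell, by 0.50 ± 0.13 (adjusted p = 0.00348), and it was named after its value was seen. The cysteine cathepsins therefore did not all move with Ctsl.

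The plasminogen and thrombin system, on which Serpinb2 and Serpine2 act, had 16 of 28 genes tested, of which 4 rose, 4 fell and 8 were not called, with a median log2 difference of -0.07. The thrombin receptor F2r rose from 118 ± 16.8 to 225 ± 26.0 CPM, by 0.94 ± 0.07 (edgeR, adjusted p = 9.01e-11). Every calcitriol library lay above all vehicle libraries for F2r. F2rl1, the receptor cleaved by trypsin-like proteases, was at 1.67 ± 0.881 CPM with vehicle and 9.40 ± 1.0 CPM with calcitriol. Its log2 difference was 2.42 ± 0.18. F2rl1 was low with vehicle and may have passed the count filter only through the calcitriol group, so its values are given without a test. The urokinase gene Plau was low and was not called, at 1.94 ± 0.627 and 1.92 ± 0.968 CPM (log2 difference -0.08 ± 0.25, adjusted p = 0.838). The urokinase receptor gene Plaur was at 3.83 ± 1.24 CPM with vehicle and 1.99 ± 1.28 CPM with calcitriol, a log2 difference of -1.05 ± 0.24. Plaur was low with calcitriol and may have passed the count filter only through the vehicle group, so it too is given without a test. Plau and Plaur were named for their role beside Serpinb2, outside the naming rule. S100a10, which binds plasminogen at the cell surface with annexin, fell by 0.29 ± 0.04 and the proprotein convertase Furin by 0.50 ± 0.09, while the receptor chaperone Lrpap1 rose by 0.36 ± 0.05.

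Of 9 caspases, 8 were tested, 3 rose, 3 fell and 2 were not called, at a median log2 difference of 0.01. Casp6 rose from 191.5 ± 12.7 to 423 ± 20.5 CPM, by 1.14 ± 0.04 (edgeR, adjusted p = 9.53e-18). Casp2 rose by 0.27 ± 0.04, while the inflammatory caspases Casp1 and Casp4 fell by 0.83 ± 0.17 and 0.42 ± 0.09 on the log2 scale.

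Of 29 protease inhibitors of other families, 28 were in the table and 12 were tested, of which 3 rose, 2 fell and 7 were not called, at a median log2 difference of 0.10. Stfa2, a stefin that inhibits cysteine cathepsins, rose from 7.04 ± 5.78 to 63.1 ± 42.3 CPM, by 3.19 ± 0.40 (edgeR, adjusted p = 2.53e-06), and every calcitriol library lay above all vehicle libraries. Spint2 rose by 0.41 ± 0.08 and Cst7 by 0.28 ± 0.07, while Cstb fell by 0.16 ± 0.05 and Itih5 by 0.72 ± 0.25. With the libraries summed to those 6 sets per group, 3 genes of this list were called instead of 5.

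Several members are also expressed by myeloid and stromal cells, so markers of those cells are given beside them. Of 13 macrophage and monocyte markers, Fcgr1, C1qa, C1qb, C1qc and Marco had no count in any library, Csf1r had 1 count in all and Lyz2 had 2, and only Cd68 passed the filter, at 6.02 ± 1.64 and 8.12 ± 2.52 CPM (edgeR, adjusted p = 0.0541). The list summed to between 4.52 and 9.88 CPM in vehicle and between 6.47 and 13.9 CPM in calcitriol libraries. Of 10 neutrophil markers, S100a9, Camp, Ngp and Retnlg had no count, and Cxcr2 rose from 3.46 ± 1.33 to 5.75 ± 2.15 CPM (edgeR, adjusted p = 0.0219). Ly6g was at 0.191 ± 0.129 CPM with vehicle, near the detection limit, and at 2.16 ± 0.571 CPM with calcitriol. It passed the count filter only through the calcitriol group, so its values are given without a test. This list summed to between 2.06 and 6.60 CPM with vehicle and between 4.35 and 11.9 CPM with calcitriol, and its part in the values of Serpinb1a and Stfa2 was not tested.

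Of 10 markers of stroma and endothelium, Col3a1 and Cdh5 had no count, Dcn had 1, and the sum, 31.2 to 58.9 CPM with vehicle and 47.8 to 80.8 CPM with calcitriol, came almost wholly from Pecam1. Pecam1 was the only gene of that list tested, and it rose from 38.3 ± 7.46 to 69.0 ± 11.1 CPM (SD, n = 11), by 0.84 ± 0.10 on the log2 scale (edgeR, adjusted p = 3.46e-07), in the same direction as Serpinf1. The part of these cells in the values of Serpinf1 was not tested. Of 8 markers of CD8 and NK cells, Ncr1 had no count and Cd8a had 6 vehicle and 4 calcitriol counts. That list summed to 12.4 to 23.4 CPM with vehicle and 10.2 to 28.4 CPM with calcitriol, and neither of its 2 tested genes, Cd8b1 and Nkg7, was called. Sums for dendritic cells (79.0 to 117 CPM with vehicle, 76.2 to 128.5 with calcitriol, mostly H2-Ab1), B and plasma cells (6.21 to 17.5 and 5.80 to 15.6 CPM) and mast cells, basophils and eosinophils (2.64 to 7.16 and 2.24 to 6.30 CPM) overlapped between the groups.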

How the data were processed

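The authors deposited raw counts per Ensembl gene for 22 libraries, per the file headers. STAR 2.7.10a, HTSeq 0.13.5 and build GRCm38 are named in the submitters' processing notes, without roles, while strand setting and annotation release are not stated there. Per the labels' protocols, a stranded total RNA kit with globin removal was used. Symbols and coordinates came from GENCODE M21 on the same build, with 259 IDs left without a symbol. Genes were filtered with filterByExpr, scaled by TMM and tested with edgeR 4.0.16 (R 4.3.3; robust quasi-likelihood test, no covariate) with Benjamini-Hochberg adjustment over all 11905 genes, at 0.05. The test was run on simulated counts with independent libraries and the same variability for every gene. That run cannot show how the test behaves when libraries resemble one another in sets, as they do here. Alternatives were DESeq2 1.42.0, limma-voom (limma 3.58.1), other scaling, filters and libraries, and summed copies. A fold against 0 counts used a floor of 3 counts over the group. Floors and intervals reflect counting error alone, because reads carry no molecular identifiers and are not independent. The members, the lists and the alternatives were chosen with earlier results of these data known. Named are all members, tested serpins, up to 5 genes per list by smallest p, up to 3 called neighbours per cluster and the 2 genes most alike to each member. Of the genes this rule names, 2 are left out here.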

Additional observations from a re-analysis of the deposited data

How the results depend on the processing

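Over all genes, 3755 were called, 2357 when mutually best correlated libraries of a group were summed to 6 sets per group, and between 3467 and 3806 when 1 library was left out. With summed sets, 3 inhibitors of other families were called instead of 5, and the cause was not tested. No member changed direction in any of its alternatives. The log2 difference ran from 4.72 to 5.07 for Serpinb2, -2.02 to -1.75 for Serpina3g, -0.89 to -0.81 for Serpinb6a, -0.86 to -0.63 for Serpinb6b and 0.55 to 0.60 for Serpinf1, all called throughout. With summed sets, however, Serpinb6b lay only just inside the threshold of 0.05. Serpinb9, at -0.68 to -0.44, lost its call only with summed sets, and was filtered out at 5 CPM in 11 libraries. Serpine2, at -0.47 to -0.33, lost it in 13 of 29 settings, namely with no filter, with summed sets and without any 1 of 11 libraries. Serpina3f was tested in 2 settings and called in 1, and Serpinb1a was tested in 1. Few counts limit both genes. No paired analysis was possible because the labels give no replicate numbers, and those used here only name libraries.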

Other observations

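Genes that neighbour the members, other than serpins, were read within 500 kb of each member's start. None near Serpinb2 or the Serpina3 pair passed the count filter. Of 29 tested neighbours of the others, 4 rose, 9 fell and 16 were not called (edgeR), beside 31.5% of all tested genes called.

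Near Serpinf1 on chromosome 11, 19 genes were tested, of which 3 rose, 4 fell and 12 were not called. The transcriptional repressor gene Hic1 fell from 46.4 ± 7.82 to 18.0 ± 8.28 CPM (SD, n = 11), a log2 difference of -1.31 ± 0.21 (SE; edgeR, adjusted p = 5.14e-05), with no overlap between the 11 calcitriol and 11 vehicle libraries. Mir22hg, the host transcript of a microRNA, rose from 18.9 ± 3.84 to 30.4 ± 5.44 CPM, by 0.70 ± 0.11 (adjusted p = 1.35e-05), and Smg6, a nonsense-mediated decay factor, fell by 0.33 ± 0.06. Serpinf1, Mir22hg and Hic1 thus lay in 1 region with differences in both directions.

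Ripk1, a kinase of cell death signalling, starts 0.431 kb from Serpinb6a on the opposite strand. It rose from 53.8 ± 5.62 to 62.1 ± 5.90 CPM, by 0.21 ± 0.06 on the log2 scale (edgeR, adjusted p = 0.00846), while Serpinb6a was lower with calcitriol. The tubulin genes Tubb2a and Tubb2b, farther along, fell by 0.80 ± 0.12 and 0.74 ± 0.18. Near the chromosome 13 group of Serpinb1a, Serpinb6b and Serpinb9, the only tested gene was Wrnip1, which fell by 0.21 ± 0.07. Near Serpine2, 4 genes were tested and 2 fell, namely Wdfy1 by 0.26 ± 0.07 and Mrpl44 by 0.19 ± 0.06.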
